A study of Mus musculus with 4 samples.

Results

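The 41 genes described here encode the enzymes and small proteins that remove peroxides and keep thiols reduced through glutathione and thioredoxin, together with regulators of that system. They were chosen by symbol, and 30 of the 41 are among the 7000 genes that the authors' table of the liver RNA-Seq experiment lists. Of these 41 genes, 9 encode selenoproteins, 27 encode selenium-free enzymes and electron carriers, and 5 encode regulators, and the table lists 8, 19 and 3 of them. The RNA came from whole liver of male FVB/N wild-type mice that received a torula yeast-based diet from weaning, with 0 ppm Se added ("0 Se", 2 mice) or 0.1 ppm Se added as sodium selenite ("0.1 Se", 2 mice), for 6 weeks.

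For each gene, the table gives 1 level over all 4 libraries, the log2 of its mean CPM (reads of the gene per 1e6 mapped reads of the library), with both diets in the mean. It has 0 columns for single mice. The spread between mice, the depth of each library and the level in each diet are therefore not given here, a value stands without SD or n, and neighbours in an order of levels cannot be shown to differ. The authors' own results of the diet comparison, which stand in the same table, were not used. The levels below are the mean CPM divided by the length of the listed mRNA in kilobases (CPM per kb), so that genes of different length can be set side by side. In whole tissue, fewer cells of a type and less RNA per cell cannot be told apart.

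As background, hydrogen peroxide is removed by several kinds of enzyme. Catalase splits it in peroxisomes, peroxiredoxins reduce it with electrons from thioredoxin, and glutathione peroxidases reduce it, or lipid hydroperoxides, with electrons from glutathione. Thioredoxin and glutathione are then reduced again with NADPH, by thioredoxin reductase and glutathione reductase. Several of these enzymes hold selenocysteine (Sec) at the active site, an amino acid that is inserted at a UGA codon, and liver is rich in many of them. Regulators such as Nrf2 (encoded by Nfe2l2), held in check by Keap1, drive the transcription of many of these genes.

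The selenocysteine codon is what separates the selenoproteins of the list from their selenium-free relatives, and it is shown here in its coding context. The sequences and the gene coordinates below were taken from the GENCODE vM1 models of NCBIM37, which is mm9 under its assembly name, 5′ to 3′ in the DNA letters of the mRNA strand, with up to 12 coding bases on each side. The capitals mark the selenocysteine codon, written TGA.

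Gpx1: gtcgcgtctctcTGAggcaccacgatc
Gpx3: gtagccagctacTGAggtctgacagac
Gpx4: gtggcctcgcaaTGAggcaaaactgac
Txnrd1: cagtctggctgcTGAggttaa
Txnrd2: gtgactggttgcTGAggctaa
Txnrd3: cagaaaggctgcTGAggctag
Msrb1: caatcaagattcTGAatatttagcagc
Sepw1: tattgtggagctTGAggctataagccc
2700094K13Rik: cattgtacgagcTGAcgcgtgtacggc

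Each of the 9 gene models has 1 selenocysteine codon. In the 3 thioredoxin reductases it is the last codon but 1 before the stop, so that the printed context ends with the stop codon. In the peroxidases it lies further upstream, at codon 47 of 201 in Gpx1, codon 73 of 226 in Gpx3 and codon 129 of 253 in the Gpx4 model of 995 bases, which is also the length of the listed Gpx4 mRNA. Only this Gpx4 model was used, chosen by its length, and which Gpx4 form liver makes was not tested. In Sepw1 the selenocysteine codon is codon 13 of 88, nearest to the start codon as a share of the coding sequence (14.8%). In Msrb1 it is codon 95 of 116. Between the codon and the last exon junction lay 66 bases in Msrb1, 83 bases in Txnrd2 and 240 bases in Gpx3, and it lay in the last exon of Txnrd1 and Txnrd3.

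**Figure D1:**
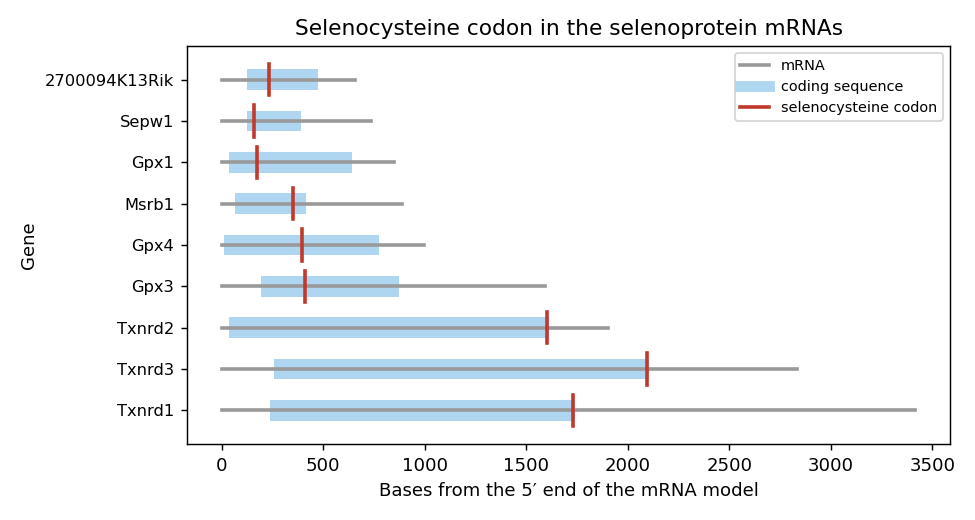
Position of the selenocysteine codon (red line) in the mRNA models of the 9 selenoprotein genes, with the coding sequence in light blue and the mRNA as a grey line; the horizontal axis is in bases from the 5′ end. The codon is near the start of the coding sequence in Sepw1 (14.8% of its codons) and at its very end in the 3 thioredoxin reductases.

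Relatives of these genes on the list have another codon at the same place. The encoded proteins were aligned end to end, with selenocysteine scored as cysteine. The codons that fell opposite the selenocysteine codon of Gpx1 (for Gpx7 and Gpx8) or of Msrb1 (for Msrb2 and Msrb3) are in capitals below.

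Gpx7: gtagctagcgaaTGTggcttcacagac
Gpx8: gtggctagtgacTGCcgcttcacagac
Msrb2: ggccaaaggtttTGCatcaacagtgtg
Msrb3: ggcaaaagatacTGCatcaactcagca

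All 4 are cysteine codons, codon 56 in Gpx7, codon 79 in Gpx8, codon 162 in Msrb2 and codon 151 in Msrb3. Gpx7 shared 39.0% of its aligned residues with Gpx1 and 44.8% with Gpx4, and Gpx7 and Gpx8 shared 48.4% with each other. Msrb1 shared 37.1% of its aligned residues with Msrb2 and 36.0% with Msrb3. Glutathione reductase, encoded by Gsr, shared 37.3% with Txnrd1, and no residue of it was aligned with the selenocysteine of Txnrd1. The thioredoxin reductases were closer to one another, with 72.3% between Txnrd1 and Txnrd3 and 55.8% between Txnrd1 and Txnrd2.

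Across the list, levels ran from 0.967 CPM per kb for Gpx7 to 1477 CPM per kb for Cat. The median of the 30 listed members was 44.6 CPM per kb, against 6.19 CPM per kb over all 7000 listed genes. In the top 10% of the listed genes were 14 of the 30 members, 9 lay between there and the median of all listed genes, and 7 lay below that median. The 14 included all 5 listed peroxiredoxins, Cat, Sod1, Gpx1, Gpx4, Msrb1, Txn1, Gclc, Gclm and Glrx. On mean CPM with no division by length, 9 members instead of 14 were in the top 10%. The listed members had a median mRNA length of 1431 bases, against 2959.5 bases over all listed genes. All medians, percentiles and shares given here hold within the listed genes, whose rows stand in order of the authors' p-value. Whether the list was cut along that order, and so by the diet comparison, is not known. Hepatocyte markers such as Alb, Ttr and Cps1 are not among the listed genes, so a percentile is not a rank among all genes of liver.

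**Figure D2:**
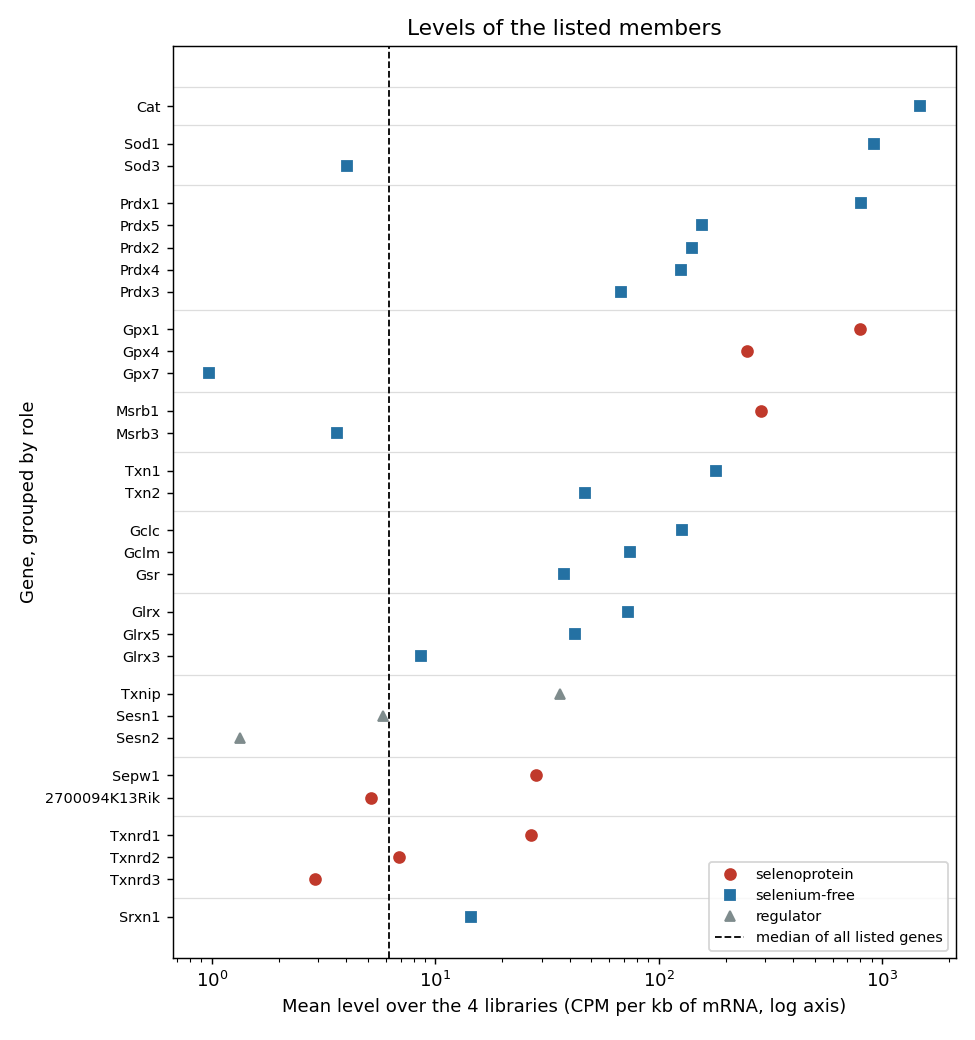
Mean level over the 4 libraries of the 30 listed members, in CPM per kb of mRNA on a log axis, with 1 point per gene and genes grouped by role. The dashed line is the median of all listed genes (6.19 CPM per kb); Cat is highest at 1477 CPM per kb and Gpx7 lowest at 0.967 CPM per kb, and 7 members lie left of the line.

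The 8 listed selenoprotein genes had a median of 27.6 CPM per kb and ranged from 2.91 to 797 CPM per kb. The 19 listed selenium-free genes had a median of 72.8 CPM per kb and ranged from 0.967 to 1477 CPM per kb. The ranges overlapped over most of their width. The log2 difference of the medians, selenoprotein minus selenium-free, was -1.40, and it was -0.61 between the means of the log2 levels. In the top 10% were 3 of the 8 selenoprotein genes and 11 of the 19 selenium-free genes. By mean CPM they were 3 of 8 and 6 of 19, so that the order of the shares turned round with the scale. Genes are not replicates, so these differences are a description of the genes listed. The classes were not listed to the same extent, with 8 of 9 selenoprotein genes and 19 of 27 selenium-free genes. Each level pools both diets and describes neither diet alone.

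Among the glutathione peroxidases, Gpx1 and Gpx4 were abundant and the cysteine form Gpx7 was not. Gpx1, the cytosolic enzyme that reduces hydrogen peroxide (chromosome 9, 108241607 to 108242671), had a mean of 833 CPM on an mRNA of 1045 bases, which is 797 CPM per kb. Gpx4, the enzyme that reduces lipid hydroperoxides in membranes (chromosome 10, 79509911 to 79519184), had 248 CPM, or 249 CPM per kb. Gpx1 was thus 3.20 times the level of Gpx4 per kb of mRNA. Gpx7, a peroxidase of the endoplasmic reticulum (chromosome 4, 108072995 to 108079566), had 1.17 CPM or 0.967 CPM per kb. The level of Gpx4 was 258 times that of Gpx7 per kb. Gpx7 was at percentile 1.04 in mean CPM, near the lowest level listed, so the size of this ratio is uncertain. Gpx3, the secreted plasma enzyme, and Gpx8 are not listed.

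The 3 thioredoxin reductases were spread over a smaller range than the peroxidases and none was in the top 10%. Txnrd1, the cytosolic enzyme (chromosome 10, 82296696 to 82360469), had 97.8 CPM on a long mRNA of 3634 bases, or 26.9 CPM per kb. Txnrd2, the mitochondrial enzyme (chromosome 16, 18426510 to 18479166), had 13.1 CPM or 6.90 CPM per kb, close to the median of all listed genes. Txnrd3, which is best known from testis (chromosome 6, 89593982 to 89625523), was lowest at 8.25 CPM or 2.91 CPM per kb. Txnrd1 exceeded Txnrd2 3.90 times and Txnrd3 9.25 times per kb. These mRNAs resemble one another, and reads that matched more than 1 mRNA were not counted by the authors.

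The mRNAs of the substrates of these reductases were more abundant per kb than the mRNAs of the reductases. Txn1, cytosolic thioredoxin, had 189 CPM or 180 CPM per kb, which is 6.69 times Txnrd1. Txn2, mitochondrial thioredoxin, had 59.8 CPM or 46.7 CPM per kb, which is 6.77 times Txnrd2. The ratio of thioredoxin to reductase mRNA per kb was therefore about as high for the mitochondrial genes as for the cytosolic ones. On mean CPM, where the longer reductase mRNAs collect more reads, the ratios were 1.94 and 4.55.

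Msrb1, which reduces oxidised methionine with selenocysteine (chromosome 17, 24873587 to 24879723), was the second highest of the selenoprotein genes of the list. It had 254 CPM on an mRNA of 886 bases, or 286 CPM per kb, 1.15 times Gpx4. Msrb3, a selenium-free form of the same enzyme (chromosome 10, 120218152 to 120336157), had 13.5 CPM or 3.64 CPM per kb. Msrb1 was 78.7 times Msrb3 per kb and 18.8 times Msrb3 in mean CPM, since the Msrb3 mRNA is 3708 bases long. Msra, which acts on the other stereoisomer of oxidised methionine, and Msrb2 are not listed.

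The remaining selenoprotein genes of the list encode small redox proteins. Sepw1, which encodes selenoprotein W (chromosome 7, 16502557 to 16507751), had 20.0 CPM or 28.4 CPM per kb, near Txnrd1. The gene 2700094K13Rik encodes selenoprotein H, a nuclear protein (chromosome 2, 84509375 to 84510927), and had 3.52 CPM or 5.18 CPM per kb. It was thus below the median of all listed genes, while Sepw1 was at percentile 82.3 per kb. In mean CPM, Sepw1 was at percentile 52.3 and 2700094K13Rik at percentile 14.6. Both mRNAs are short, with 705 and 679 bases.

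The peroxiredoxins were abundant per kb of mRNA. Their 5 listed members all lay at or above percentile 91.0 on that scale, with a median of 141 CPM per kb. In mean CPM, Prdx1 was at percentile 99.0 and Prdx2 at percentile 90.2. Prdx4, Prdx5 and Prdx3 were lower in mean CPM, at percentiles 89.4, 87.8 and 86.4. Prdx1, a cytosolic form (chromosome 4, 116358149 to 116373427), had 1141 CPM or 805 CPM per kb and was 1.01 times Gpx1 per kb. Prdx5, found in mitochondria, peroxisomes and cytosol, had 156 CPM per kb. Prdx2, cytosolic and 74.7% identical to Prdx1 in its aligned residues, had 141 CPM per kb. Prdx4 of the endoplasmic reticulum had 126 CPM per kb, and mitochondrial Prdx3 was lowest with 67.9 CPM per kb. Prdx1 exceeded Prdx3 11.9 times per kb. The gene model nearest in length to the listed Prdx1 mRNA of 1417 bases has 877 bases, and with that length Prdx1 would be at 1301 CPM per kb, above Sod1. Prdx6 is not listed. Srxn1, sulfiredoxin, which repairs over-oxidised peroxiredoxins, had 40.8 CPM or 14.5 CPM per kb, and Prdx1 was 55.5 times as high.

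Catalase was the highest of the members on both scales, and cytosolic superoxide dismutase came next per kb of listed mRNA. Cat (chromosome 2, 103294006 to 103325317) had 3767 CPM on an mRNA of 2551 bases, or 1477 CPM per kb, at percentile 99.6. It was 1.85 times Gpx1 per kb and 4.52 times Gpx1 in mean CPM. Sod1, which turns superoxide into hydrogen peroxide in the cytosol (chromosome 16, 90220987 to 90226567), had 595 CPM on 648 bases, or 918 CPM per kb. The place of Sod1 depends on the scale, since it was 1.14 times Prdx1 per kb and 0.521 times Prdx1 in mean CPM, where Gpx1 (833 CPM) also stood above it. With the lengths of their gene models, Prdx1 (1301 CPM per kb) and Gpx1 (984 CPM per kb) would stand above Sod1 per kb too. Sod3, the extracellular enzyme, was at 8.28 CPM or 4.05 CPM per kb, and Sod2, the mitochondrial enzyme, is not listed.

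**Figure D3:**
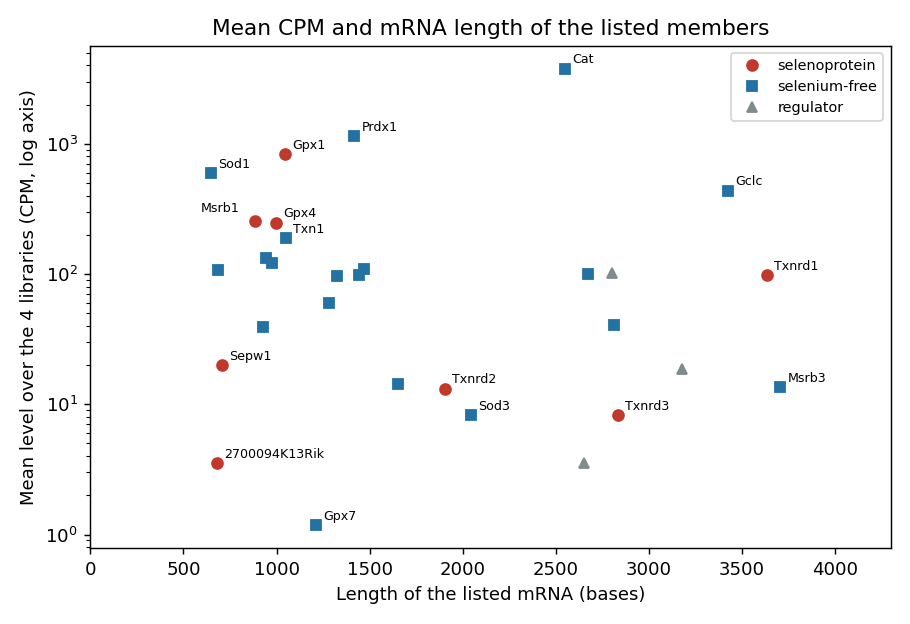
Mean CPM over the 4 libraries (log axis) against the length of the listed mRNA in bases, with 1 point per listed member and the class of the gene by colour and shape. Cat (3767 CPM) and Gclc (435 CPM) combine a high CPM with a long mRNA, whereas Sod1 (595 CPM) has an mRNA of 648 bases.

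The genes of glutathione synthesis and recycling that are listed were all well above the median of the listed genes. Gclc, the catalytic subunit of the rate-limiting enzyme (chromosome 9, 77602342 to 77642292), had 435 CPM or 127 CPM per kb. Gclm, its modifier subunit (chromosome 3, 121948475 to 121972902), had 109 CPM or 74.4 CPM per kb. The ratio of Gclc to Gclm was 1.71 per kb and 3.98 in mean CPM. It depends on the length of Gclm, listed with 1470 bases against 4841 bases in the nearest gene model. With the model length Gclm would be at 22.6 CPM per kb, percentile 79.1 and outside the top 10%, and the ratio would be 5.62. Gsr, which reduces oxidised glutathione (chromosome 8, 34762995 to 34808635), had 101 CPM or 37.7 CPM per kb. Gss, which adds the glycine, and Ggt1, which breaks glutathione down outside the cell, are not listed.

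Of the glutaredoxins, which use glutathione to reduce protein disulfides or carry iron-sulfur clusters, 3 of 4 are listed. Glrx, the cytosolic dithiol form, had 96.7 CPM or 72.8 CPM per kb. Glrx5, a mitochondrial form of iron-sulfur cluster assembly, had 42.4 CPM per kb, and Glrx3, a cytosolic form with the same kind of role, had 8.62 CPM per kb. Glrx was 1.72 times Glrx5 and 8.45 times Glrx3 per kb. Glrx2 is not listed.

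Of the 5 regulators, 3 are listed. Txnip, which binds and inhibits thioredoxin, had 102 CPM or 36.3 CPM per kb, which is 0.201 times Txn1 per kb and 0.537 times Txn1 in mean CPM. Of the 27 listed enzymes and carriers, 17 were higher than Txnip per kb and 12 in mean CPM. Sesn1 and Sesn2, sestrins that respond to stress and restrain mTORC1 signalling, had 5.85 and 1.34 CPM per kb. Nfe2l2 and Keap1 are not listed. The 11 members that are not listed have no level here. The authors applied a low-count filter, so a low level can leave a gene out. Abundant hepatocyte genes such as Alb are not listed either, so absence cannot be read as a low level. Why each of these members is missing was not tested.

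Of 41 further genes of these pathways, such as NADPH-producing enzymes and other thioredoxin-like proteins, 21 are listed, with a median of 29.9 CPM per kb. Among the sources of NADPH, which feeds both reductases, Idh1 had 335 CPM per kb, Me1 68.5 CPM per kb, Pgd 13.7 CPM per kb and G6pdx 2.11 CPM per kb. Thus the cytosolic isocitrate dehydrogenase mRNA stood above that of glutathione reductase, and the mRNA of G6pdx, the first enzyme of the pentose phosphate pathway, stood below it. Idh2 and Nnt, further sources of NADPH, are not listed. Sepp1, the selenium carrier of plasma, at 2601 CPM per kb was higher than every listed member, and Sephs2, which makes the selenium donor for selenocysteine, had 519 CPM per kb. Hmox1 and Nqo1, targets of Nrf2 outside the list, had 17.6 and 3.82 CPM per kb.

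The label of liver was checked against marker genes. Of 9 hepatocyte markers, 5 are listed, from 595 to 7619 CPM per kb, and Alb, Ttr, Cps1 and Hnf4a are not listed. The table also lists 7 of 8 Kupffer cell marker symbols (5.15 to 74.8 CPM per kb). The Kupffer symbol not listed, Adgre1, names the same gene as Emr1, which is listed. Also listed are 4 of 6 sinusoidal endothelial markers (8.52 to 76.9 CPM per kb) and 6 of 6 stellate cell markers (1.67 to 98.3 CPM per kb). Of cholangiocyte, erythroid and lymphocyte markers, 1 each is listed, at 16.5, 19.1 and 3.93 CPM per kb. The part of these cells in the level of any member was not tested.

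The promoters of the members were searched for the core letters of the antioxidant response element, the site that Nrf2 binds, because several of the genes are known targets. The letters TGACNNNGC were searched on both strands in the 250 bases before each start site of RefSeq (GRCm38.p6). They were found for 7 of the 36 members with a promoter sequence (19.4%), against 11.5% of all genes. By class, they were found for 1 of 9 selenoprotein genes (11.1%), 4 of 22 selenium-free genes (18.2%) and 2 of 5 regulators (40%). The genes were Gclm, Ggt1, Nfe2l2, Prdx1, Sesn2, Sod1 and Txnrd1. Below are the matches in the 4 genes among them whose level was above the median of all listed genes, on the strand that reads as the motif, with the motif in capitals. The match of Prdx1 lies at chr4:116685460-116685480, that of Gclm at chr3:122245417-122245437, that of Sod1 at chr16:90220700-90220720 and that of Txnrd1 at chr10:82859108-82859128, and each reads on the strand opposite to the gene.

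Prdx1: gggggaTGACTCAGCgctttc
Gclm: gagagtTGACGGTGCgcccgg
Sod1: tgagtcTGACCACGCccacct
Txnrd1: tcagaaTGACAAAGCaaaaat

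The level of these 4 genes ranged from 26.9 CPM per kb for Txnrd1 to 918 CPM per kb for Sod1. A match describes the letters of the window and not a bound site. Cat and Gpx1, both in the top 10% of the listed genes, have no match in it.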

How the data were processed

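After depletion of ribosomal RNA, liver RNA was sequenced from 4 mice, 2 on 0 Se and 2 on 0.1 Se. Per the submitters' processing notes and the study's methods, reads were aligned with Bowtie to RefSeq mRNAs of mm9 (longest isoform per gene, unique alignments), and edgeR was applied to genes with a low-count filter. The log2 mean CPM over all 4 libraries was made by the authors with edgeR before the table was deposited, the scaling and prior count being not given in the sources used here. Depth is unknown. The table also holds log fold changes, p-values and FDR of the authors' diet comparison, and its rows stand in order of that p-value. These columns were not used and no comparison of diets is reported. The planned model of counts could not be run, since the table has 0 columns for single mice.

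Levels were computed as 2 to the power of the deposited log2 value, divided by mRNA length in kilobases, with no filter or pseudocount. No test was run. The percentile is the rank among the 7000 listed genes. The arithmetic was checked on simulated levels made with the same formula, which cannot test the deposited values or the listed lengths. Genes named are all 41 members, genes of a fixed related list and marker genes. The members and lists were chosen with earlier results of these data known. Gene models came from GENCODE vM1 on NCBIM37, by symbol or RefSeq synonym, with the transcript nearest in length. For selenoproteins, it was taken among those with an annotated selenocysteine. Proteins were aligned with Biopython 1.88 (BLOSUM62, gap opening 11, extension 1, free end gaps). Python 3.11.15, numpy 2.4.6, pandas 2.3.3 and matplotlib 3.10.9 were used.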

Additional observations from a re-analysis of the deposited data

How the results depend on the processing

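The median of the selenoprotein genes stayed below that of the selenium-free genes under every alternative run. Each log2 difference of medians was taken between the medians of the log2 levels. For an even number of genes it need not equal the log2 ratio of the medians printed beside it. With mean CPM in place of CPM per kb, the medians were 58.9 and 101 CPM, and 9 members were in the top 10%. The log2 difference was then -1.19, which is larger than the ratio of those medians gives. With genes of 5 CPM or more, the medians were 28.4 and 73.6 CPM per kb, with a difference of -1.38. The members in the top 10% were then 11 instead of 14. A minimum of 1 CPM changed no value, since every listed member has more. Without Gpx1 the selenoprotein median was 26.9 CPM per kb, and without Cat the selenium-free median was 70.4 CPM per kb. With the regulators included, the selenium-free median was 57.3 CPM per kb and the difference -1.03. The means of log2 levels differed by -0.61. With the coding length of the gene model, an alternative chosen after seeing the data, the medians were 64.1 and 133 CPM per kb and the difference -1.07. On that scale 13 members were in the top 10%. The planned coding length from RefSeq proteins was not run, because no protein table was used here.

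Of the 30 listed members, 23 have a gene model within 10% of the listed mRNA length, and 7 do not. With the model length, an alternative chosen after seeing the data, Gclm moved from 74.4 to 22.6 CPM per kb, Prdx1 from 805 to 1301, Gpx1 from 797 to 984 and Sod3 from 4.05 to 2.32. No paired analysis was possible because the table has no values of single mice, and mice were not left out in turn for the same reason.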
